A study of Mus musculus with 6 samples.

Results

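The Zfp genes of the mouse encode proteins named for zinc fingers, short protein loops folded around a zinc ion. Here the 123 well-measured ones were followed across 6 conditions of RAW264.7 macrophages. A row was taken as a member where its symbol was Zfp followed by digits, with Zfp36 left out, and where at least 100 reads were counted in each of the 6 libraries. Of 24062 rows in the count files, 332 carried such a symbol and 123 reached the minimum. The remaining 209 comprised 34 genes with 0 counts in all libraries, 21 that were counted but stayed under 10 everywhere, and 154 between these and the minimum. The members were thus selected on their measured counts in these libraries, and a gene that fell under the minimum in any condition could not be one. Just inside the minimum stood Zfp688 and Zfp865, each with 100 counts in M1, and just outside stood Zfp382, with 99 counts in RM0, and Zfp560, with 98 counts in M1. Zfp36, left out by the rule, encodes tristetraprolin, whose CCCH fingers bind messenger RNA.

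RAW264.7 is an established macrophage line of mouse, grown here as M0 (no cytokine), M1 (LPS at 100 ng/mL with IFN-γ at 20 ng/mL for 24 h) and M2 (IL-4 at 20 ng/mL for 24 h) cells. RM0, RM1 and RM2 cells had in addition received 10 Gy of gamma rays and a further 24 h of culture. The labels do not state whether the other 3 cultures were held for the same extra time, so this time and the dose cannot be told apart. Each condition was 1 library from RNA pooled over 5 wells, which leaves no replicate check on a difference between 2 libraries. Total counts ran from 17894937 in M2 to 18870516 in RM1. The labels give bone marrow as the tissue and RAW264.7 as the cell line. Csf1r, Cd68, Lyz2, Itgam, Spi1 and Ptprc, genes of macrophages, were abundant in every library, with Mertk at 3 to 8 counts. The 7 macrophage markers in the files summed to between 17132 scaled CPM (counts per 1000000 reads) in M1 and 33301 in RM0. Cd3e, Cd3g, Ms4a1, Hbb-bs and Col1a2 were at 0 counts in all 6 libraries. Cd79a had 1 to 4 counts, Hba-a1 at most 4, Col1a1 at most 11 and Zbtb46, a dendritic cell gene, 15 to 31. Of the polarization markers, Nos2 had 14393 counts in M0 and 169925 in M1, while Retnla and Chil3 were at 0 counts in every library, M2 and RM2 included. The labels M1 and M2 are used below in that light.

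Most proteins of the family carry C2H2 fingers, in which 2 cysteines and 2 histidines hold the zinc and neighbouring residues read bases of DNA. In long arrays the fingers follow each other at a fixed spacing and are joined by a conserved linker. Many of these proteins also have a KRAB domain, which recruits the co-repressor TRIM28 and with it the histone methyltransferase SETDB1 to silence retroelements and other targets. Other members are ribosome factors, ubiquitin or SUMO ligases, splicing factors and promoter-bound activators that share little but the name. The annotation in the count files gave metal ion binding for 87 of the 123 members, nucleus for 67 and DNA binding for 48.

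The repeat that defines the array could be read in the members' transcripts. The 15 bases that encode the linker, known as TGEKP, were searched for in any synonymous codons in the longest GENCODE transcript of each gene, and a pair was counted where linkers began 84 bases, or 28 codons, apart. A pair was found in 41 of 123 members, 33.3%, against 54 of 8434 genes (0.640%) that had the same minimum of reads and a matched transcript. Zfp35 had the most, with 11 pairs. A single repeat of 99 bases is shown for Zfp52 and Zfp948, neighbours on chromosome 17 that were higher in M1 cells, and for Zfp62, which was lower. The linkers at both ends are in capitals, and everything between them encodes the finger.
Zfp52: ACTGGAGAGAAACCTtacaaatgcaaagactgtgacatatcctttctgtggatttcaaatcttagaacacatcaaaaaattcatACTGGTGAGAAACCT
Zfp948: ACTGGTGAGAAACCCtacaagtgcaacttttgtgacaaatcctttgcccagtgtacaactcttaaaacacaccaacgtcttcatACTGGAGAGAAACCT
Zfp62: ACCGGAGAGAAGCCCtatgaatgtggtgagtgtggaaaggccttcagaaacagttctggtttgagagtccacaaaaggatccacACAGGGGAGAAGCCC
Zfp335, Zfp207 and Zfp608 had no linker of this form, and Zfp809 had 1. The 82 members without a pair had a median GC content of 51.1% in the transcript, against 43.2% in the 33 with 1 to 4 pairs and 42.4% in the 8 with 5 or more.

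The members were lowly to moderately expressed. Their median was 17.8 scaled CPM in M0, where the median over 8464 genes with the same minimum was 43.7. Scaled CPM are counts over a library total multiplied by a trimmed-mean (TMM) factor. Per kilobase of transcript the most abundant member was Zfp106, an RNA-binding protein needed in motor neurons and muscle, at a mean of 39.8 scaled CPM per kb over the 6 libraries. Zfp207 (34.6), a spindle protein that binds microtubules and BUB3, came next, followed by Zfp622 (23.4), a maturation factor of the large ribosomal subunit, Zfp598 (22.1), the ubiquitin ligase that marks collided ribosomes, and Zfp740 (21.4). The lowest by this measure, Zfp668, was at 1.43 scaled CPM per kb. All members together took 0.379%, 0.281% and 0.417% of the counts of the M0, M1 and M2 libraries and 0.371%, 0.338% and 0.433% of those of the RM0, RM1 and RM2 libraries. On the scaled level the same sums were 3487, 3515 and 3678 CPM in M0, M1 and M2 cells and 3531, 3823 and 3959 in RM0, RM1 and RM2 cells, so the low share in M1 was not seen on that scale. The M1 library was the lowest of the 6 for 52 members (42.3%, against 27.6% of the 8464 genes) and RM2 was the highest for 34 (27.6%, against 18.7%).

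**Figure D1:**
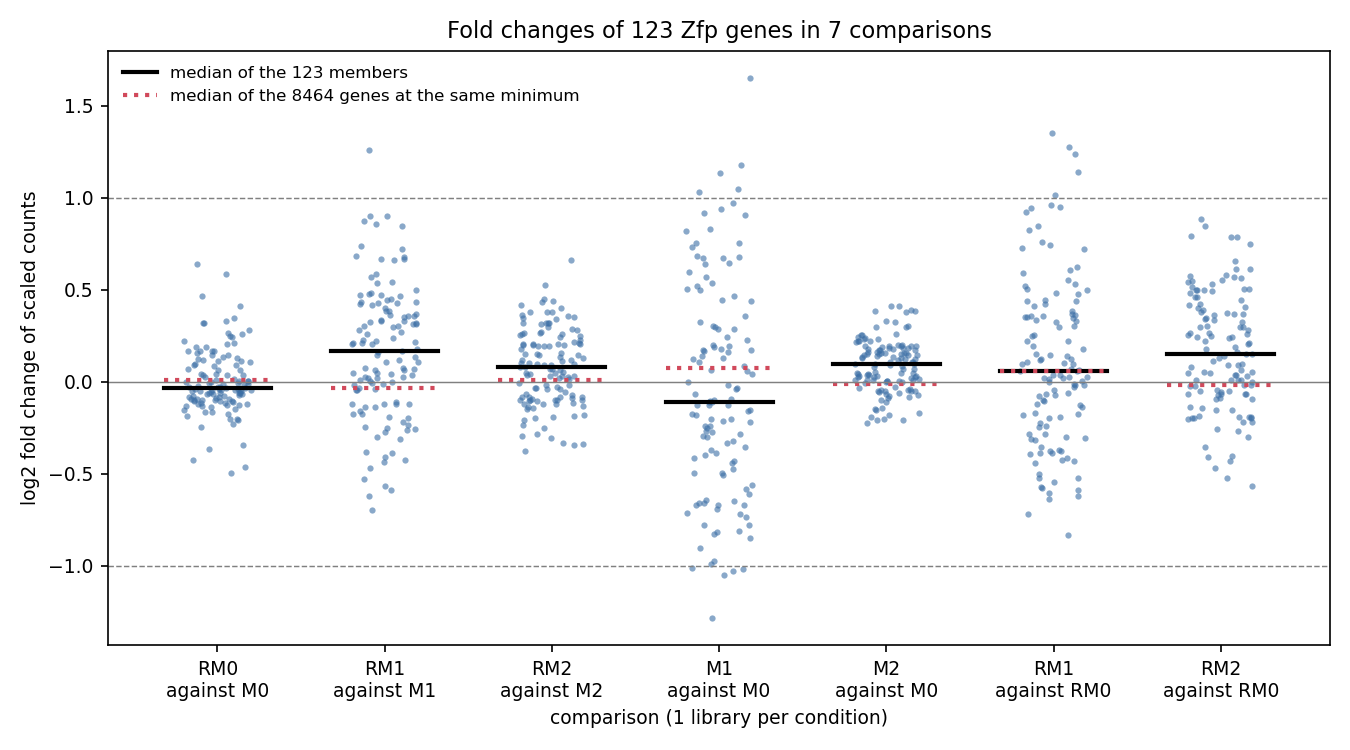
Each point is the log2 fold change (vertical axis) of 1 of 123 Zfp genes in 1 of 7 comparisons (horizontal axis), each between 2 single libraries. Black lines are medians of the 123 genes, dotted lines medians of 8464 genes with the same minimum, and dashed lines mark 2-fold. The points spread most widely in M1 against M0, and the black line lies above the dotted one by the most in RM1 against M1.

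Polarization to M1 moved individual members in both directions. In M1 against M0, 5 members were at least 2-fold higher (against 7.03% of the 8464 genes) and 5 at least 2-fold lower (against 5.94%). Zfp335, Zfp207, Zfp513, Zfp948 and Zfp597 were the higher ones, and Zfp608, Zfp62, Zfp367, Zfp644 and Zfp84 the lower ones. The median over members was -0.11 on the log2 scale, against 0.08 over the 8464 genes, and 53 members lay above 0 (43.1%, against 55%). To combine the libraries, an edgeR quasi-likelihood model with a term for polarization and a term for irradiation was fitted to the 11574 genes that reached 10 counts in 3 or more of the libraries. In that fit the irradiated and non-irradiated cultures stand in as replicates of polarization, their effects are taken to add, and 2 residual degrees of freedom are left. At a Benjamini-Hochberg adjusted p under 0.05, 26 members rose in M1 cells and 21 fell (21.1% and 17.1%, against 27.4% and 20.7% of the 8464 genes). The split moved when 1 library was left out, with 18 higher and 10 lower without M0 (against 17.9% and 14.4%), 20 and 26 without RM0 (against 22.8% and 18.3%) and 32 and 36 without RM1 (against 34.3% and 25.9%). With scaling by library totals, which shifts the median of the 8464 genes from 0.08 to -0.36 in M1 against M0, the calls were 8 higher and 47 lower (against 10.1% and 39.2% of the 8464 genes). All 21 lower calls of the TMM-scaled model were among them. Zfp207, Zfp335, Zfp513, Zfp53, Zfp597, Zfp68, Zfp821 and Zfp948 stayed higher, and the remaining 18 higher calls were not called in either direction, so that a rise of those members is one relative to the bulk of genes.

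The minimum of reads bears on these counts. Of 148 Zfp genes that fell short of it but could be tested, 4 rose and 56 fell. Over all 271 Zfp genes tested 30 rose and 77 fell (against 23.3% higher and 24.3% lower of all 11574 genes). Those shares were 2692 and 2817 genes, of which 2315 and 1752 were among the 8464. Tested genes short of the minimum thus fell more often than they rose in general, Zfp genes or not. With scaling by library totals 0 of the 148 rose and 83 fell (against 10.1% and 39.2% of the 8464 genes, which all reach the minimum). A gene with few reads in M1 could fall below the minimum by its fall alone, and 21 non-members had at least 100 counts in every library but M1. Zfp719, picked after its values were seen, was 1 such gene, with 220 counts in M0, 38 in M1 and 127 in RM1.

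**Figure D2:**
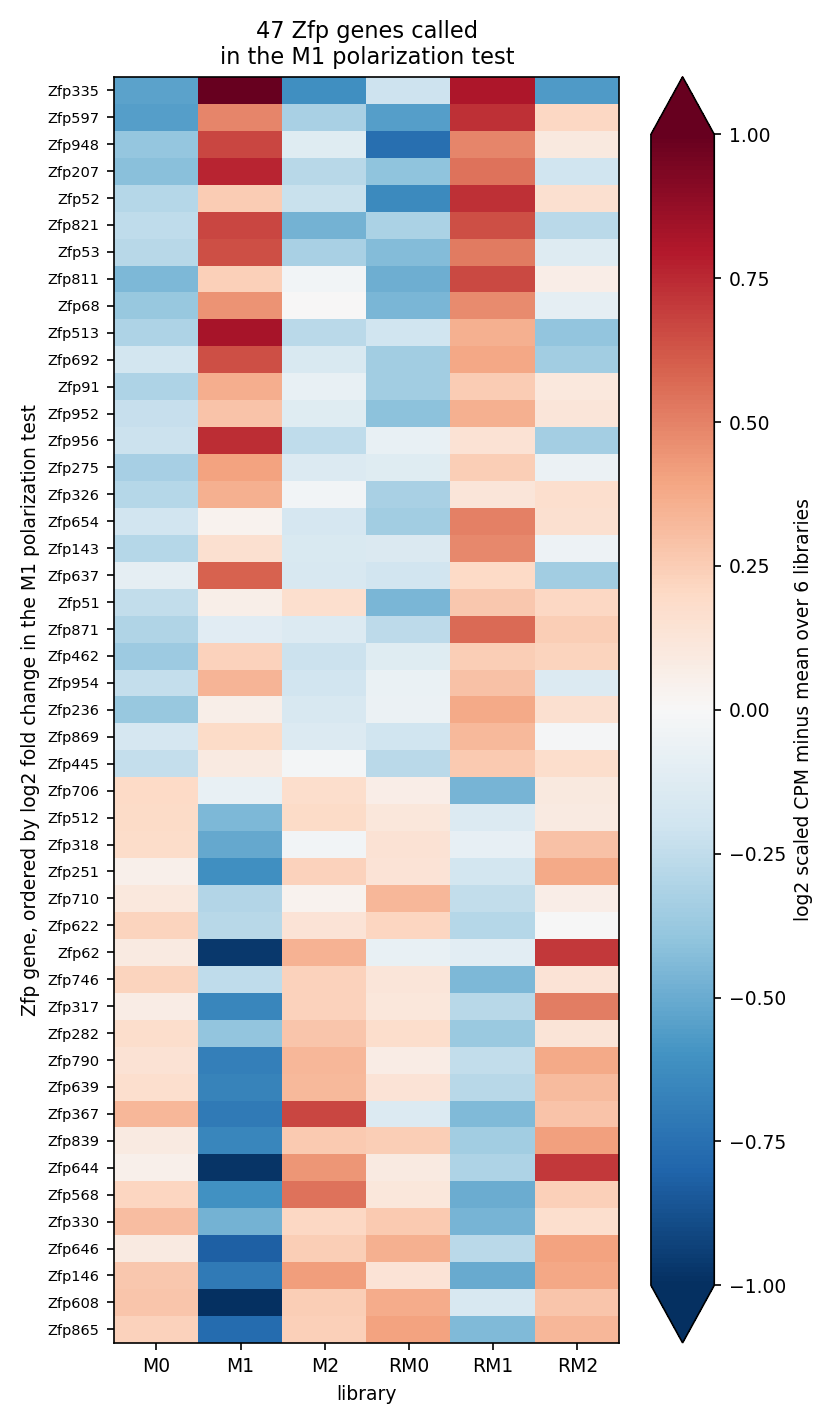
Rows are the 47 Zfp genes called in the M1 polarization test, ordered by log2 fold change, and columns are the 6 libraries. Colour gives the log2 scaled CPM minus the gene's mean over the 6 libraries, from -1 (blue) to 1 (red). The rows were chosen for their M1 calls, which sets M1 and RM1 apart from the other 4 columns, with Zfp335 at 106 and 85.2 scaled CPM in them.

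Zfp335 changed the most upward. Its protein belongs to a complex that methylates histone H3 and is required in T cells and neural progenitors. It was at 33.6, 106 and 31.8 scaled CPM in M0, M1 and M2 cells and 42.2, 85.2 and 32.9 in RM0, RM1 and RM2 cells. Both M1-polarized libraries were above all 4 others, with no overlap. The fitted log2 fold change was 1.33 ± 0.16 (SE, adjusted p = 7.78e-05, edgeR). The gene lies on chromosome 2 from 164891892 to 164911750 (mm10), and 29.2% of its longest transcript overlaps exons of Pcif1 and Zfp335os on the other strand. Whether counting used the strand is not given in the sources used here, so reads of these genes may be mixed.

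Zfp207 behaved alike without such an overlap. It was at 80.2, 181 and 88.5 scaled CPM in M0, M1 and M2 cells and 81.0, 156 and 93.4 in RM0, RM1 and RM2 cells. The log2 fold change was 1.06 ± 0.13 (SE, adjusted p = 8.22e-05, edgeR), and both M1-polarized libraries again lay above the others. Zfp207 spans 80383279 to 80405873 of chromosome 11. Zfp597 rose by 1.16 ± 0.17 (SE, adjusted p = 0.000352, edgeR), with 9.58 scaled CPM in M0, 19.7 in M1 and 23.2 in RM1. Its transcript overlaps Naa60 and Gm26675 on the other strand over 23.6% of its length. Zfp68, Zfp821 and Zfp513 rose as well, by 0.88, 0.94 and 0.85 on the log2 scale. Zfp513 is known from photoreceptor development, and it stood at 72.0 scaled CPM in M1 and 52.0 in RM1, a log2 difference of -0.47 between these libraries (exact 95% counting interval from -0.60 to -0.34).

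Neighbouring genes on chromosome 17 were among the higher ones. Zfp51, Zfp53, Zfp52 and Zfp948 lie within 21450352 to 21588682, an interval that holds no other Zfp gene of the files. All 4 rose in the M1 polarization test, by 0.52, 0.94, 0.94 and 1.14 on the log2 scale. Zfp948 was at 11.1, 23.0 and 13.3 scaled CPM in M0, M1 and M2 cells and 8.57, 20.3 and 15.5 in RM0, RM1 and RM2 cells. For Zfp52 the levels were 11.2, 16.4 and 11.8 in M0, M1 and M2 cells and 8.83, 22.7 and 15.4 in RM0, RM1 and RM2 cells. Zfp53 ran from 8.47 in RM0 to 17.9 in M1, and Zfp51 from 6.23 in RM0 to 10.3 in RM1. RM0 was the lowest library for each of the 4. The medians of the 4 were 0.73 in M1 against M0 and 1.09 in RM1 against RM0. With scaling by library totals, Zfp53 and Zfp948 remained called. Without the RM0 library Zfp52 had 0.57 and was not called (adjusted p = 0.0527, edgeR), and Zfp51 kept its call in 1 of the 6 fits with a library left out, that without M1. All 4 were picked by their values in these data. Zfp51 and Zfp948 were named by rules that rank fold changes or p-values, and Zfp53 and Zfp52 after their values were seen. The longest transcripts of the 4 share no 100-base window with a transcript of another gene. A further set on the same chromosome, Zfp871, Zfp811, Zfp472 and Zfp952 between 32765497 and 33005457, had medians of 0.35 and 0.79 in these comparisons.

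The promoters of Zfp53, Zfp52 and Zfp948 are shown because the genes moved together. Each window holds the 250 bases before the RefSeq start in GRCm38.p6, on the plus strand, at chr17:21488738-21488987, chr17:21535289-21535538 and chr17:21566728-21566977. Capitals mark a run of 12 bases, GAAGCCTGAGAC, found by a script as the longest run that all 3 windows share, and, where present, an Sp1 box (GGGCGG) or a CCAAT box read on either strand.
Zfp53 promoter: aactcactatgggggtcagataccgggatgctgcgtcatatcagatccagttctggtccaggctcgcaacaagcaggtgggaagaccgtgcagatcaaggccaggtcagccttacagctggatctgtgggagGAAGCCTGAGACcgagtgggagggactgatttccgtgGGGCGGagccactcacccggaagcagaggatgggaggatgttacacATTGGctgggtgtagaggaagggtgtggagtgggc
Zfp52 promoter: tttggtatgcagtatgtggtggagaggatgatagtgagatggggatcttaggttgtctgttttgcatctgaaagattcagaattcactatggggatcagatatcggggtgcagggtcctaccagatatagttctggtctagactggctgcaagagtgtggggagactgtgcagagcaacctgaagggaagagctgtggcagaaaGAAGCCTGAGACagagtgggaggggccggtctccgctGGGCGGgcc
Zfp948 promoter: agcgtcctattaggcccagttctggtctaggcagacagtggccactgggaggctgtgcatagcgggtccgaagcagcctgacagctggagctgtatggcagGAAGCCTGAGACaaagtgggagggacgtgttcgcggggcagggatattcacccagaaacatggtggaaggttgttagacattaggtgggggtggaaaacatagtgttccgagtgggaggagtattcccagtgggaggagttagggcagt
The run begins 118 bases before the start of Zfp53, 46 before that of Zfp52 and 149 before that of Zfp948, and 4 of 32817 promoter windows hold it. The windows of these 3 genes hold it by the way it was found, and the remaining one is at H1f2. No GAS element (TTCNNNGAA) or ISRE core, elements bound by interferon-activated factors, stands in these 3 windows. Over 124 windows of 96 member genes with an entry, a GAS element was in 10.5% (against 7.02% of all windows), an ISRE core in 0% (against 2.97%), an Sp1 box in 58.1% (against 32.7%), a CCAAT box in 45.2% (against 33.8%) and a TATA box (TATAAA) in 6.45% (against 12.4%). All motifs were searched on both strands. The member windows held a median of 14 CG pairs, against 6 over all windows. The windows of all genes were not filtered by counts, whereas the members had to reach the minimum, so these shares do not compare members with genes of like expression. Such matches describe letters of the windows only.

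The members that fell in M1 cells were led by Zfp865, Zfp608 and Zfp146. Zfp608, known as a repressor of Rag gene expression in thymocytes, was at 20.1, 8.18 and 19.7 scaled CPM in M0, M1 and M2 cells and 21.4, 14.8 and 20.1 in RM0, RM1 and RM2 cells. Both M1-polarized libraries were below all others, and the log2 fold change was -0.87 ± 0.20 (SE, adjusted p = 0.00458, edgeR). It was -0.52 without the M1 library and -1.31 without RM1. Zfp146, a protein made up almost wholly of C2H2 fingers, fell from 39.8 scaled CPM in M0 to 20.2 in M1 and from 36.4 in RM0 to 23.3 in RM1, with M2 at 44.3 and RM2 at 43.1 (log2 fold change -0.81 ± 0.13, SE, adjusted p = 0.000743, edgeR). Zfp330, a nucleolar zinc finger protein, was at 69.3 in M0, 40.4 in M1, 67.0 in RM0 and 40.7 in RM1, a fitted change of -0.75 ± 0.12 (SE, adjusted p = 0.000595, edgeR). Its level was thus nearly the same in both M1-polarized libraries. Zfp646 fell by 0.76 on the log2 scale and Zfp865 by 0.92. Reads of Zfp865 are uncertain, since 20.9% of its transcript overlaps exons on its own strand and 27.2% on the other.

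A group of neighbours on chromosome 7 had lower values in M1. Between 29775338 and 30169727 lie 15 Zfp genes of the files, of which Zfp84, Zfp790, Zfp568, Zfp260 and Zfp146 reached the minimum. The group was picked after its values were seen. None of these 5 was higher in M1 than in M0 (against 43.1% of the members and 55% of the 8464 genes), with a median of -0.82 on the log2 scale. In RM1 against RM0 1 of 5 was higher (against 57.7% and 54.6%), with a median of -0.31. Another group on this chromosome, of 6 members from Zfp553 to Zfp646, had 0 higher in M1 against M0 (median -0.19) and 3 higher in RM1 against RM0. Zfp790, Zfp568 and Zfp146 fell in the M1 polarization test, although Zfp790 was not called without M0, M1, M2 or RM2 (-0.35 without M1). Zfp84 missed the threshold (adjusted p = 0.0998, edgeR), with 276, 101 and 289 counts in M0, M1 and M2 cells and 264, 214 and 264 in RM0, RM1 and RM2 cells. In that gene the M1 library alone stood apart. Chromosome 7 held 26 of the 123 members, chromosome 17 held 13 and chromosome 8 held 11.

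In irradiated cells the M1 contrast was spread over a smaller range than in non-irradiated cells, a difference that was not tested and that the 8464 genes shared. From M1 against M0 to RM1 against RM0 the standard deviation went from 0.59 to 0.46 over the members and from 0.72 to 0.57 over the 8464 genes. In RM1 against RM0, 5 members were at least 2-fold higher (against 3.97% of the 8464 genes) and 0 were at least 2-fold lower (against 2.78%), with a range from -0.83 to 1.35 on the log2 scale, where M1 against M0 ran from -1.29 to 1.65. The higher ones were Zfp52, Zfp597, Zfp948, Zfp811 and Zfp335. Zfp811 lay at 6.30 scaled CPM in M0, 10.1 in M1, 6.12 in RM0 and 13.6 in RM1. M1 against M0 and RM1 against RM0 share no library, and across the 123 members their log2 fold changes had a Spearman coefficient of 0.71, against 0.78 across the 8464 genes. Genes are not independent replicates, and this is a description. The sign was the same for 89 of 123 members, 45 higher and 44 lower in both. Zfp62, a gene of long finger arrays, had -1.05 in M1 against M0 and -0.03 in RM1 against RM0 (exact 95% counting intervals from -1.27 to -0.84 and from -0.20 to 0.15). Its counts were 681 in M0, 244 in M1, 599 in RM0 and 500 in RM1.

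**Figure D3:**
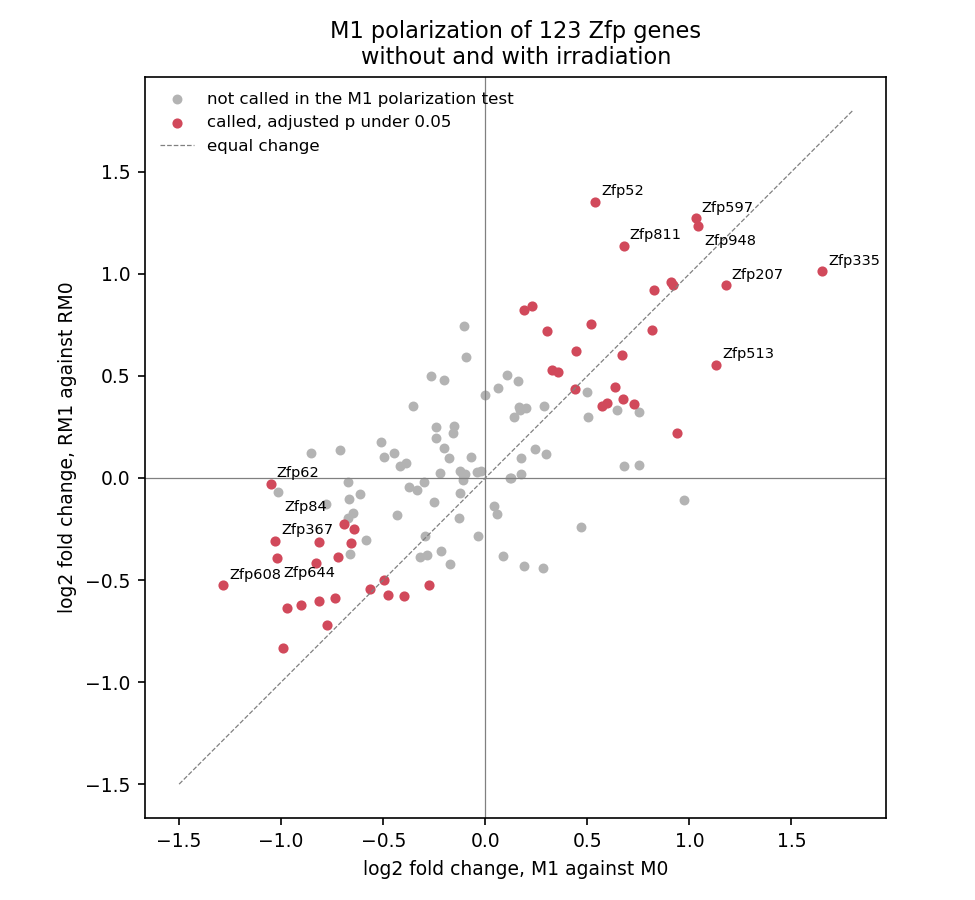
Each point is 1 of 123 Zfp genes, with its log2 fold change in M1 against M0 on the horizontal axis and in RM1 against RM0 on the vertical axis. Red points were called in the M1 polarization test, grey points were not, and genes past 2-fold on either axis are named. The lower-left points lie above the dashed line of equal change for Zfp608, Zfp62, Zfp84, Zfp367 and Zfp644.

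After irradiation few members differed by 2-fold from their non-irradiated state. In RM0 against M0 no member was 2-fold higher (against 0.0473% of the 8464 genes) or 2-fold lower (against 0.0354%), and the values ran from -0.50 to 0.64 on the log2 scale. In RM2 against M2 there was again no such member in either direction (against 0.0945% and 0.0591%). In RM1 against M1, Zfp958 was the 1 member past 2-fold, higher in RM1 (against 0.555%), and none was lower (against 0.496%). The medians over the members were -0.04, 0.17 and 0.08 for the M0, M1 and M2 states, against 0.01, -0.03 and 0.01 over the 8464 genes. Members above 0 numbered 50 in RM0 against M0, 83 in RM1 against M1 and 77 in RM2 against M2 (40.7%, 67.5% and 62.6%, against 52.8%, 46.1% and 51.6%). Higher in all 3 states were 27 members (22.0%, against 20.7%), and lower in all 3 were 15 (12.2%, against 19.9%).

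Zfp809 was the 1 member that passed the irradiation test (0.813% of the members, against 0.295% higher and 0.0827% lower of the 8464 genes). It is a KRAB zinc finger protein known to bind the primer binding site of murine leukaemia proviruses and to recruit TRIM28 there in embryonic cells. Counts were 181, 151 and 242 in M0, M1 and M2 cells and 269, 319 and 375 in RM0, RM1 and RM2 cells. On the scaled level these were 9.13, 10.2, 11.9, 13.7, 19.1 and 18.9 CPM in the same order. Every irradiated library lay above every non-irradiated one. The log2 differences within the states were 0.58 for RM0 against M0 (exact 95% counting interval from 0.31 to 0.87), 0.90 for RM1 against M1 (0.62 to 1.19) and 0.66 for RM2 against M2 (0.43 to 0.90), and the fitted change was 0.72 ± 0.13 (SE, adjusted p = 0.0458, edgeR). It was also the 1 member called by DESeq2, but the edgeR call was lost with scaling by library totals (adjusted p = 0.184), without the polarization term (1.00) and without the M2 or the RM2 library (0.120 and 0.151, 2 fits that rest on the same 4 libraries), at log2 fold changes from 0.73 to 0.75. Zfp809 lies on chromosome 9 from 22225703 to 22243354, with no overlapping exon of another gene.

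Zfp958 had the largest difference of the members between an irradiated library and its non-irradiated state. Its counts were 212, 147 and 283 in M0, M1 and M2 cells and 279, 399 and 340 in RM0, RM1 and RM2 cells. The log2 difference of the scaled level was 1.26 in RM1 against M1 (exact 95% counting interval from 0.99 to 1.55), 0.41 in RM0 against M0 and 0.29 in RM2 against M2. It was higher after irradiation in 3 of 3 states and did not pass the test (adjusted p = 0.159, edgeR). Without the M2 or the RM2 library it was the 1 member called, in place of Zfp809. Without the trend on GC content its difference in RM1 against M1 was 0.99, just under 2-fold. The effects of irradiation on the members showed little likeness between M0 and the other states. RM0 against M0 and RM1 against M1 had a Spearman coefficient of 0.00 across the members, against 0.08 over the 8464 genes. RM0 against M0 and RM2 against M2 had 0.02, against 0.28. RM1 against M1 and RM2 against M2 had 0.45, against 0.56. Without the M0 library the irradiation test called 8 members, all higher, and without the RM0 library 9, all higher (against 4.14% and 4.50% of the 8464 genes), among them Zfp62, Zfp217, Zfp292 and Zfp958. When 1 library of a state is left out, the other is fitted by its own term, so that both fits take irradiation from the same 4 libraries (M1, M2, RM1 and RM2) and are not independent of each other. The fits without M1 or RM1, which likewise share their libraries, called Zfp809 higher and Zfp367 lower. Zfp367 stood at 15.7 scaled CPM in M0 and 11.4 in RM0, 19.8 in M2 and 15.2 in RM2, but 7.64 in M1 and 9.18 in RM1.

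**Figure D4:**
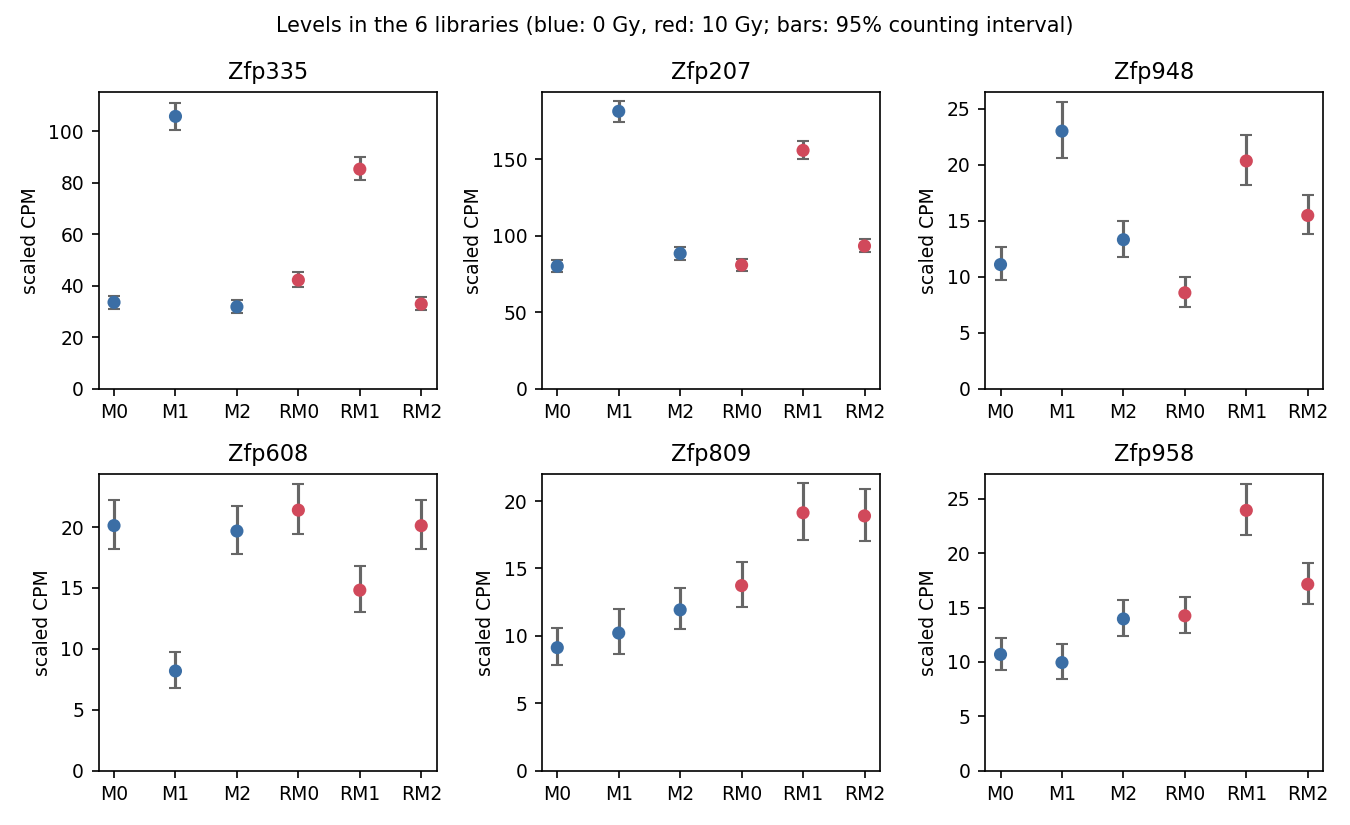
Scaled CPM (vertical axes, from 0) of Zfp335, Zfp207, Zfp948, Zfp608, Zfp809 and Zfp958 in the 6 libraries (horizontal axes), blue without and red with 10 Gy. Bars are exact 95% Poisson intervals, which cover counting error only. Zfp809 rises from 9.13 in M0 to 13.7 in RM0, from 10.2 in M1 to 19.1 in RM1 and from 11.9 in M2 to 18.9 in RM2.

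Treatment with IL-4 left the members close to M0. No member was past 2-fold in M2 against M0 in either direction (against 0.0473% higher and 0.0354% lower), and the values ran from -0.22 to 0.41 on the log2 scale. Small shifts went mostly up: 92 of 123 members were above 0 (74.8%, against 46.5%), with a median of 0.10 against -0.01. In the M2 polarization test 0 members were called by edgeR (against 0.118% higher and 0.0236% lower), with 17 at an unadjusted p under 0.05 (13.8%, against 10.7% of the 8464 genes). DESeq2 called 0 (against 0.213% higher and 0.0945% lower), with 8 at an unadjusted p under 0.05 (against 6.05%). The smallest adjusted p was 0.387. When the M1 or the RM1 library was left out, 24 members were called, all higher (19.5%, against 6.91% and 6.95%), in fits that both rest on the M0, M2, RM0 and RM2 libraries and thus amount to 1 result. They included Zfp51, Zfp52, Zfp948, Zfp62, Zfp644 and Zfp809. RM2 against RM0 likewise had 0 members past 2-fold (against 0.142% and 0.118%) and 82 above 0 (66.7%, against 47.4%), with a median of 0.15 against -0.02. The members furthest up in that comparison included Zfp930, at 0.89, and Zfp948, at 0.84.

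Of 26 Zfp genes listed for what they are known to do, 25 reached the minimum, and 6 rose and 4 fell in the M1 polarization test (against 27.4% and 20.7% of the 8464 genes). With scaling by library totals 2 rose and 10 fell (against 10.1% and 39.2%), where Zfp335 and Zfp207 were the ones that rose. Among the factors of translation, Zfp622 fell (121 scaled CPM in M0, 86.0 in M1, 121 in RM0 and 85.2 in RM1, log2 fold change -0.50, adjusted p = 0.00547, edgeR). Zfp598 stood at 73.2 in M0, 79.7 in M1, 72.4 in RM0 and 72.3 in RM1 and missed the threshold (adjusted p = 0.702, edgeR). Zfp106 likewise missed it, between 322 scaled CPM in M1 and 404 in RM2. Of the RNA and cell cycle factors, Zfp207 and Zfp326 rose. Zfp326, part of a complex that couples splicing to elongation, had 326 counts in M0, 379 in M1, 313 in RM0 and 363 in RM1 (log2 fold change 0.55, adjusted p = 0.0127, edgeR). Zfp830 had a fitted change of -0.45 that missed the threshold (adjusted p = 0.0539, edgeR).

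Of the ligases, Zfp91, a ubiquitin ligase that acts on the NF-κB-inducing kinase NIK, rose from 85.1 scaled CPM in M0 to 135 in M1 and from 82.4 in RM0 to 125 in RM1 (log2 fold change 0.64, adjusted p = 0.00186, edgeR). The row of the count files spans 3.5% of the annotated gene, from 12794984 to 12796123 of chromosome 19, although counting may have used the whole gene. Zfp451, a SUMO ligase, had a change of 0.32 that missed the threshold (adjusted p = 0.0610, edgeR). Among the sequence-specific activators and regulators, Zfp143, which binds many promoters and activates small nuclear RNA genes, rose by 0.54, from 36.5 scaled CPM in M0 to 49.6 in M1 and from 40.3 in RM0 to 62.1 in RM1. Zfp410, known to act almost wholly on the gene of the NuRD helicase Chd4, was at 24.2 in M0, 27.3 in M1, 23.3 in RM0 and 29.4 in RM1 (adjusted p = 0.143, edgeR). Chd4 itself had 8708 counts in M0 and 6245 in M1, a scaled difference of -0.06 on the log2 scale (adjusted p = 0.721 in the test, edgeR). Zfp148, Zfp281, Zfp384, Zfp131, Zfp217, Zfp292, Zfp592, Zfp609 and Zfp687 were not called. Zfp217, known as an amplified oncogene, had -0.61 in M1 against M0 and -0.08 in RM1 against RM0.

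Among members with known ties to silencing, directions differed. Zfp445, a KRAB protein that maintains imprints, rose by 0.43 (61.2 scaled CPM in M0, 76.8 in M1, 60.1 in RM0 and 86.7 in RM1), a call lost without the M2, RM0 or RM2 library. Zfp568, a KRAB repressor of a placental Igf2 transcript, fell by 0.71, from 14.4 to 8.11 between M0 and M1 and from 13.4 to 8.76 between RM0 and RM1. Zfp644, a partner of the methyltransferases G9a and GLP, fell by 0.69, with 14.2 scaled CPM in M0, 6.97 in M1, 14.6 in RM0 and 11.1 in RM1. Its change was -0.50 and not called without M0 (adjusted p = 0.112, edgeR), and -0.45 without M1. Zfp318, which controls the switch to IgD in B cells, fell by 0.46, a call lost without the M0, M1, M2 or RM2 library (-0.25 without M0).

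The machinery on which KRAB proteins depend was looked at through a list of co-repressor and heterochromatin genes. Of 31 tested, 4 rose and 8 fell in the M1 polarization test (against 23.3% higher and 24.3% lower of all 11574 genes), and 0 rose and 1 fell in the irradiation test (against 0.346% and 0.13%). Trim28, the KRAB co-repressor, had 2957 counts in M0, 1802 in M1, 2813 in RM0 and 1784 in RM1 and fell in the M1 polarization test (adjusted p = 0.0266, edgeR). Setdb1 had 1235, 651, 1152 and 1029 counts in the same libraries and was not called (adjusted p = 0.273, edgeR). Hdac1, Uhrf1, Atrx and Cbx5 were among the others of the 8 that fell, and Daxx, Suv39h1, Atf7ip and Mta2 were the 4 that rose. Suv39h1, a histone H3 lysine 9 methyltransferase, also fell after irradiation, with 347, 483 and 386 counts in M0, M1 and M2 and 242, 267 and 241 in RM0, RM1 and RM2 (adjusted p = 0.0458, edgeR). With scaling by library totals or without the polarization term, 0 of the 8464 genes were called for irradiation, Suv39h1 included. Of the HUSH complex and its partners, which silence retroelements, 4 of 5 fell in the M1 polarization test. Fam208a was lowest in M1, with 87 counts against 477 in M0, 460 in RM0 and 307 in RM1.

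Of the other zinc finger families, Zbtb, Zscan with Zkscan, and Klf genes were called in both directions with TMM scaling, and CCCH genes only higher. Among 37 genes with a Zbtb symbol, 6 rose and 9 fell in M1 cells (against 23.3% and 24.3% of all 11574 genes). Among 16 with Zscan or Zkscan symbols 1 rose and 4 fell, and among 11 Klf genes 3 rose and 3 fell. Of 8 genes of CCCH proteins that act on messenger RNA, 5 rose and 0 fell, Zfp36 among them with 7927 counts in M0, 23058 in M1, 9974 in RM0 and 26010 in RM1. On the scaled level Zfp36 was at 1559 CPM in M1, where the 123 members summed to 3515. With scaling by library totals, which called 10.1% of the 8464 genes higher and 39.2% lower, the higher and lower calls were 1 and 18 in the co-repressor list (Daxx the higher one), 0 and 4 in the HUSH list, 3 and 18 among Zbtb genes, 0 and 6 among Zscan and Zkscan genes, 1 and 6 among Klf genes and 2 and 0 among the CCCH genes (Zfp36 and Zfp36l1). In the M2 polarization test none of these lists had a called gene.

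GC content of the transcript moved with several of these differences. The members had a median of 47.1% against 49.5% over the 8434 genes with a matched transcript, and 57 of 123 (46.3%) fell in the lowest tercile, under 46.4%. In that tercile the members' median was 0.32 in RM1 against M1 and 0.42 in RM2 against RM0, against 0.16 and 0.24 for all genes of the tercile. In the highest tercile, above 52.7%, the members' medians were -0.05 and -0.14, against -0.21 and -0.23. Across the members, GC content and the log2 fold change had a Spearman coefficient of -0.78 in RM2 against RM0 (-0.72 over the 8434 genes), -0.55 in RM2 against M2, -0.40 in RM1 against M1 and 0.45 in RM0 against M0, but 0.05 in M1 against M0. With the trend over all genes removed, the medians of the members were 0.16 in RM1 against M1, 0.02 in RM2 against M2, 0.09 in M2 against M0 and 0.13 in RM2 against RM0. The part that GC content or the libraries' preparation had in these values was not tested beyond this. Members with linker pairs, which are poorer in GC, had medians of 0.21 (1 to 4 pairs) and 0.41 (5 or more) in RM1 against M1. In M1 against M0 they were -0.13 and -0.58. The 82 members without a pair had 0.06 and 0.01 in these comparisons, which share the M1 library. In RM1 against RM0, without that library, the medians were 0.14 and 0.16, against 0.01 for members without a pair.

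**Figure D5:**
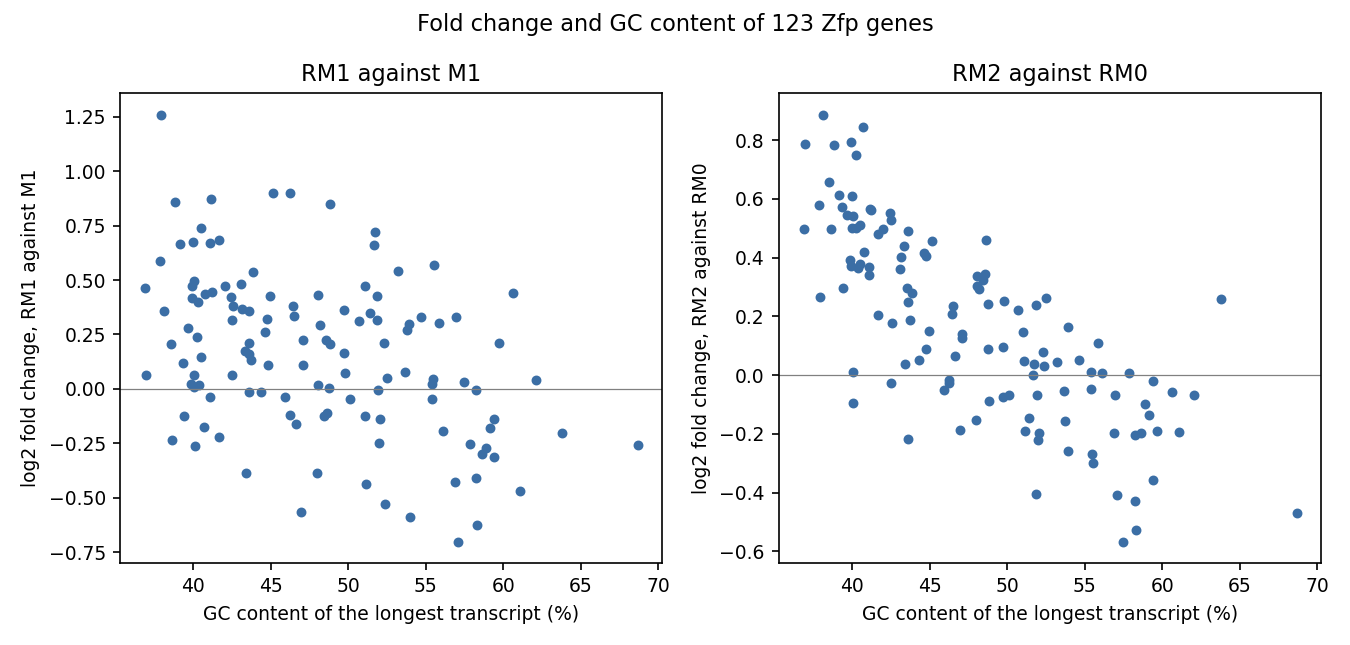
GC content of the longest transcript in percent (horizontal axes) and log2 fold change (vertical axes) of 123 Zfp genes, for RM1 against M1 on the left and RM2 against RM0 on the right. Each point is 1 gene. Values fall with rising GC content in both, with Spearman coefficients of -0.40 and -0.78.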

How the data were processed

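Total RNA of RAW264.7 cells was sequenced as paired reads, 1 library for each of the 6 conditions. The submitters' processing notes name Trimmomatic 0.36, HISAT2 2.2.1, HTSeq 0.11.3 and mm10; the strand setting is not given in the sources used here. The deposited values used are the authors' raw counts per gene, 17894937 to 18870516 per library. Members and gene lists were chosen with earlier results of these data known. Counts were scaled with TMM factors (edgeR 4.0.16), log2 values had a prior count of 2, and pairs of libraries were compared at 2-fold with exact Clopper-Pearson 95% intervals, which cover counting error only. The quasi-likelihood test covered the 11574 genes that reached 10 counts in 3 or more of the libraries, and p-values were adjusted over all of them (Benjamini-Hochberg). On simulated counts for these genes it recovered 188 of 200 genes changed by irradiation at a log2 fold change of 1, with 7 false calls, and 185 of 200 in the M1 polarization test, with 14. In that simulation effects were additive, every gene had the same dispersion, and the 200 genes changed evenly up and down under 1 factor. The real M1 polarization test called far more genes (23.3% higher and 24.3% lower), and additivity is an assumption there, so these rates need not hold for the data. DESeq2 1.42.0 was an alternative, beside other scalings, minimums, thresholds and libraries left out. Transcript length, GC content and overlaps came from GENCODE M21, matched for 123 of 123 members, and promoters from RefSeq. Named genes were those past 2-fold in any comparison, up to the 10 most changed in M1 against M0, the 3 highest and 3 lowest of 5 comparisons, the 5 smallest p of the called in each test, the 5 most abundant, those nearest the minimum and those with known roles; others were chosen after their values were seen.
Some marker genes and sequences are not reported here.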

Additional observations from a re-analysis of the deposited data

Results flagged for a closer look

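Among the members, 12 had differences of opposite sign under the same contrast in different states, each with an exact 95% counting interval that excludes 0 (9.76%, against 21.3% of the 8464 genes, which had more reads at the median and so mostly narrower intervals). For irradiation there were 8 (6.5%, against 16%) and for polarization to M1 there were 5 (4.07%, against 6.66%), with Zfp276 in both. With 1 library per condition these opposite signs were not tested. Zfp335 was 0.33 (log2) in RM0 against M0 and -0.31 in RM1 against M1. Zfp511 was 0.64 in RM0 against M0 and -0.44 in RM1 against M1. Zfp526 was 0.46 in RM0 against M0 and -0.34 in RM2 against M2. Zfp52 was -0.34 in RM0 against M0, 0.47 in RM1 against M1 and 0.38 in RM2 against M2. Zfp62 was -0.17 in RM0 against M0, 0.86 in RM1 against M1 and 0.36 in RM2 against M2. Zfp326 was -0.23 in RM1 against M1 and 0.20 in RM2 against M2, and Zfp91 was -0.11 and 0.18 in the same order. Zfp276 was 0.32 in RM0 against M0 and -0.41 in RM1 against M1, and it was 0.28 in M1 against M0 and -0.44 in RM1 against RM0. Zfp346 was 0.19 in M1 against M0 and -0.43 in RM1 against RM0. Zfp260 was -0.20 in M1 against M0 and 0.48 in RM1 against RM0, and Zfp961 was -0.35 and 0.35 in the same order. Zfp292, a large multi-finger protein, was -0.27 in M1 against M0 and 0.50 in RM1 against RM0.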

How the results depend on the processing

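The labels carry no replicate numbers, and the irradiation test pairs the libraries by state through its polarization term. With scaling by library totals, 29 members passed 2-fold in M1 against M0 (1 higher, 28 lower, against 2.94% and 16.7% of the 8464 genes), 4 in RM1 against M1 (against 1.54%) and 3 in RM1 against RM0 (against 8.67%), the median of the members became -0.55 in M1 against M0 (-0.36 over the 8464 genes) and -0.19 in RM1 against RM0 (-0.19), and 0 members passed the irradiation test, which also called 0 without the polarization term. At 1.5-fold the calls were 48 in M1 against M0 (21 higher, 27 lower, against 19.9% and 15.9%), 24 in RM1 against RM0 (against 23.5%), 17 in RM1 against M1 (against 10.5%), 9 in RM2 against RM0 (against 3.97%) and 1 in each of RM0 against M0 and RM2 against M2 (against 0.886% and 1.31%). With a minimum of 50 counts (162 members) they were 21 in M1 against M0 (7 higher, 14 lower, against 7.25% and 7.51% of genes with that minimum). There were 3 in RM1 against M1 (against 1.47%) and 2 in RM2 against RM0 (against 0.371%). With 200 counts (68 members) there were 4 in M1 against M0 (against 11.4% of genes with that minimum). RM1 against RM0 had 1 (against 5.72%) and RM1 against M1 had 0 (against 0.835%). Without the GC trend the calls were 0 in RM1 against M1 (against 0.83% of the 8434 genes with a matched transcript) and 3 in RM1 against RM0 (against 6.45%). Without the length trend there were 2 in RM1 against M1 (against 0.889%). Keeping only the 95 members without overlapping or shared sequence, an alternative chosen after seeing the data, gave 6 in M1 against M0 (2 higher, 4 lower) and 3 in RM1 against RM0. The 8464 genes, not filtered in this way, had 7.03% higher and 5.94% lower in M1 against M0 and 6.75% called in RM1 against RM0. Leaving out each library in turn gave 1 to 9 calls in the irradiation test (8 without M0, 9 without RM0, 2 without M1 or RM1), 28 to 68 in the M1 polarization test (28 without M0, 68 without RM1, where the shares of all genes moved too) and 0 to 24 in the M2 polarization test (24 without M1 or RM1, 1 without M0). The 2 fits that each leave out 1 library of the same state estimate irradiation from the same 4 libraries, as they do the M2 test without M1 or RM1. The causes were not tested. Zfp335, Zfp207, Zfp597, Zfp68, Zfp948, Zfp330, Zfp146, Zfp865, Zfp646 and Zfp608 kept their direction and stayed past the threshold of the M1 polarization test in all 10 alternatives run for it, of which 6 leave 1 state with a lone library (M1 or RM1 in 2 of them) that is assumed to vary like the others. A gene at 100 counts carries wide counting intervals: Zfp865 in M1 against M0 ran from -1.35 to -0.67. The 28 members with overlapping or shared sequence are the least certain.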
